A study of Caenorhabditis elegans with 4 samples.

Results

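The aquaporin genes of Caenorhabditis elegans were examined on 4 arrays, through every probe set that the platform's annotation assigns to aqp-1 to aqp-8, aqp-10 and aqp-11. The 10 genes were read by 11 of the 22548 probe sets that are not hybridisation controls, and no aquaporin probe set was assigned to several genes. They are 10 of the 17118 gene symbols read by a probe set assigned to 1 gene. The aquaporin genes aqp-9 and aqp-12 were not analysed here. Among the 7 genes detected against the control, the largest single changes from it were those of aqp-1 and aqp-8, which are described beside the rest. This did not hold on every array, since with DEHP aqp-11 (0.42) lay slightly further from the control than aqp-1 (0.41).

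Aquaporins are membrane channels that let water cross the lipid bilayer, and the aquaglyceroporins among them also pass glycerol and other small solutes. In the worm they are known from the intestine, the excretory cell, the hypodermis, muscle and some sensory neurons. The excretory cell is the worm's osmoregulatory organ, a canal cell that collects fluid and passes it to the outside. Glycerol is both the backbone released when stored fat is broken down and the osmolyte that worms accumulate under salt stress.

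Each group was a single one-colour Affymetrix array of wild-type young adult hermaphrodites, taken at 3 days from a synchronised culture grown on Escherichia coli OP50. The exposed worms had been held for 24 h at 20 °C without food in K-medium, a potassium and sodium chloride solution, with BPA (bisphenol A), DEHP (di(2-ethylhexyl) phthalate) or NP, read here as nonylphenol. The dose of each was 1/100 of that chemical's 24 h LC50, the concentration that kills the median worm, so molar doses were not matched. The control worms are given as untreated, with no statement of whether they were fed or held in the medium. Exposure to chemical, medium and lack of food therefore cannot be told apart in any comparison with the control. A group of 1 array allows neither a test nor a check against replicates, precision is limited by how few arrays there are, and each value describes these 4 arrays. The RNA came from worms, not separated tissues, so less RNA per cell and fewer or smaller cells of a type cannot be told apart.

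All intensities given are the deposited ones. Log2 changes are given against the median detected gene. After scaling to a common median, that gene's log2 difference from the control was 0.0099 with BPA, 0.16 with DEHP and 0.38 with NP. A gene counted as detected where its brighter array reached the pooled median, which corresponds to deposited intensities of 141 on the control array, 140 with BPA, 127 with DEHP and 109 with NP. For 5 of 5 worm transcripts with 3-prime and 5-prime control probe sets, the NP array had the highest 3-prime to 5-prime ratio. For catalase it was 1.63 on the control array, 1.44 with BPA, 1.82 with DEHP and 3.38 with NP. For ubiquitin the margin was small, with 8.98 on the NP array and 8.28 with BPA. For gly14 the 3-prime signal was the dimmer one on every array. Its ratios were 0.24 on the control array, 0.016 with BPA, 0.097 with DEHP and 0.47 with NP, so it says little about 3-prime bias. Changes on the NP array also ran with gene span. With genes put into 5 equal groups by span, the median was -0.24 over the group of the longest genes and 0.20 over that of the shortest. The part of either measure in the aquaporin values on that array was not tested beyond the span correction shown in the plot of settings. For the listed genes described below, the part of either measure in the NP values was not tested, and no span correction is shown.

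The transcript of aqp-1 was higher than the control on the BPA array and lower than it on the NP array. The gene encodes a glycerol channel of the intestine and is known as a target of the insulin-regulated factor DAF-16, with lower expression on a high-glucose diet. Its probe set, which is not of a shared type, had an intensity of 925 on the control array, 3797 with BPA, 1236 with DEHP and 305 with NP. BPA stood highest and NP lowest, with DEHP close above the control, and all 4 values lay above the detection level. The log2 change from the control was 2.04 for BPA, a 4.11-fold difference, 0.41 for DEHP and -1.61 for NP, a 3.04-fold difference.

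Set among all detected genes, the aqp-1 change on the BPA array ranked 14 from the highest of 8819. With NP it ranked 177 from the lowest of 8940, and on the DEHP array 14.0% of detected genes lay at least as high. The span of its deposited intensities over the 4 arrays was 3.64 log2, the widest of the 11 aquaporin probe sets.

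**Figure D1:**
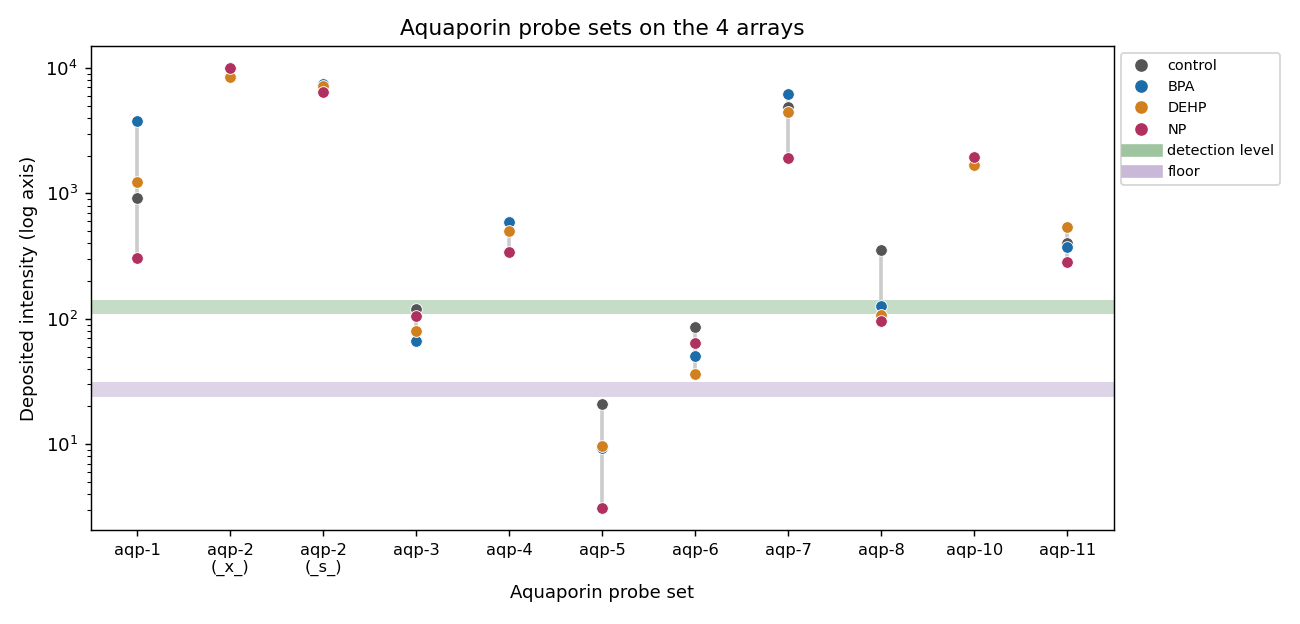
Deposited intensity (log axis) of each of the 11 aquaporin probe sets on the control, BPA, DEHP and NP arrays, 1 point per array. Grey bars join the lowest and highest array, and the bands mark the detection level and the floor in deposited units over the 4 arrays. aqp-1 spreads from 305 to 3797, aqp-8 has its control value of 353 above the other 3, and aqp-5 lies under the floor (the pooled 25th percentile) on all 4 arrays. Heights of different probe sets are not comparable as transcript levels.

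The transcript of aqp-8 was lower than the control on all 3 exposed arrays. AQP-8 is a channel of the excretory cell, whose gene is known to be controlled there by the POU homeodomain factor CEH-6. The intensity was 353 on the control array, 126 with BPA, 106 with DEHP and 96.1 with NP. The control stood alone above the detection level, and the 3 exposed arrays all lay under it and close together. The log2 change was -1.48 with BPA, -1.74 with DEHP and -1.88 with NP, or 2.80-fold, 3.33-fold and 3.68-fold lower. The sizes are uncertain because the dimmer side was under the detection level each time.

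All 3 changes of aqp-8 are measured from the same control array and the same probe set, so they do not support each other. The change ranked 31 from the lowest of 8819 detected genes for BPA, 121 of 8915 for DEHP and 90 of 8940 for NP. Between exposed arrays aqp-8 was not detected. The differences there, 0.37 for BPA against NP, 0.23 for BPA against DEHP and -0.16 for NP against DEHP, lay between values under the detection level.

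The muscle aquaporin gene aqp-7, an aquaglyceroporin, was lower on the NP array. Its intensity was 4851 on the control array, 6243 with BPA, 4466 with DEHP and 1923 with NP. NP stood apart below the other 3 arrays, among which BPA was highest. The log2 change was 0.37 with BPA, -0.13 with DEHP and -1.34 with NP, a 2.53-fold difference. On the NP array 3.85% of detected genes lay at least as low. With arrays brought to a common median but not centred on the median gene, the NP value was -0.96 and fell short of 2-fold.

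The water channel gene aqp-4, expressed in the intestine, showed a smaller difference on the NP array. Its intensity was 594 on the control array, 595 with BPA, 501 with DEHP and 342 with NP. The control and BPA values were nearly equal, DEHP was slightly lower and NP lowest. The log2 change was 0.0034 with BPA, -0.26 with DEHP and -0.80 with NP, under 2-fold on each array, and 12.4% of detected genes lay at least as low on the NP array.

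The gene aqp-11, whose product belongs to the divergent branch of the family related to vertebrate AQP11, read 401 on the control array, 370 with BPA, 540 with DEHP and 286 with NP. DEHP was highest and NP lowest. The log2 change was -0.11 with BPA, 0.42 with DEHP and -0.49 with NP, so no array lay 2-fold from the control.

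The transcripts of aqp-2 and aqp-10 differed little over the arrays. AQP-2 is a water channel of the excretory cell and hypodermis, and its gene is read by both an _x_ and an _s_ probe set, types whose probes can match several transcripts. The _x_ probe set read 10020 on the control array, 8694 with BPA, 8500 with DEHP and 9977 with NP. The _s_ probe set read 7394, 7442, 7179 and 6440 in the same order. The probe sets ordered the arrays differently, within a span of 0.24 log2 for the first and 0.21 for the second. The log2 changes of the _x_ probe set were -0.20, -0.24 and -0.010 for BPA, DEHP and NP, and those of the _s_ probe set 0.012, -0.050 and -0.20.

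AQP-10 belongs to the same divergent branch as AQP-11, and aqp-10 is read by an _s_ probe set. Its intensity was 1716 on the control array, 1694 with BPA, 1680 with DEHP and 1959 with NP. The first 3 arrays were nearly equal and NP was highest. The log2 changes were -0.016, -0.038 and 0.19.

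The genes aqp-3, aqp-5 and aqp-6 were not detected in any comparison with the control. The excretory cell channel gene aqp-3 read 119 on the control array, 66.0 with BPA, 80.2 with DEHP and 105 with NP, under the detection level on 4 of 4 arrays. The gene aqp-6, known from the IL1 sensory neurons of the head, read 86.1, 50.4, 36.2 and 64.3 in the same order. Its control value was the highest and its DEHP value the lowest. The log2 difference of -1.26 for DEHP lay between values that were both under the detection level. The gene aqp-5 read 20.9, 9.24, 9.65 and 3.09, under the floor on all 4 arrays, and has no fold here.

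**Figure D2:**
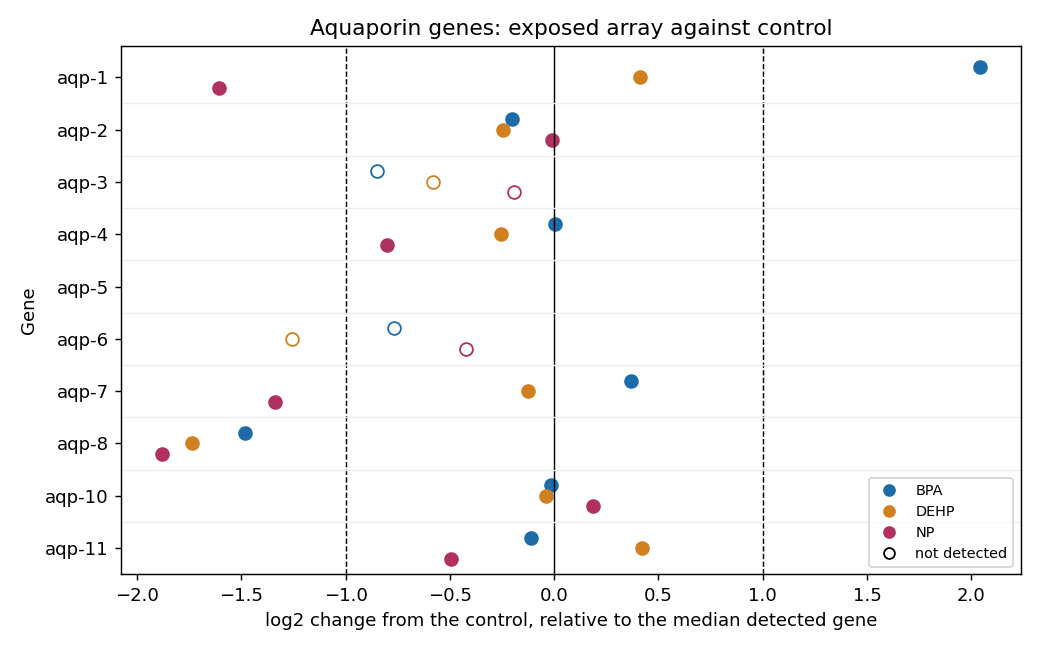
Log2 change of each aquaporin gene on the BPA, DEHP and NP arrays against the control, relative to the median detected gene. Dashed lines mark 2-fold, open points are genes not detected in that comparison, and aqp-5 has no point because it lay under the floor. The points past 2-fold among detected genes are aqp-1 for BPA (2.04) and NP (-1.61), aqp-7 for NP (-1.34) and aqp-8 for all 3.

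Of the 7 aquaporin genes detected, 1 was at least 2-fold higher on the BPA array (aqp-1) and 1 at least 2-fold lower (aqp-8), against 1.3% and 1.41% of all 8819 detected genes. Their median was -0.016. On the DEHP array 0 were higher and 1 was lower (aqp-8), against 2.82% and 5.72% of 8915 genes, and the median was -0.13. On the NP array 0 were higher and 3 lower (aqp-1, aqp-7 and aqp-8), against 1.92% and 8.42% of 8940 genes, with a median of -0.80. The median over all detected genes is 0 by construction. A gene such as aqp-8, which reached the detection level through the control array alone, could enter these counts only as lower.

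The background counts depend on the scaling. With NP, 172 of all detected genes were past 2-fold upward and 753 downward relative to the median gene, or 18.6% higher among those counted. Without centring they were 764 and 318, or 70.6%, after quantile normalization 242 and 541, and after loess 251 and 562, each of the last 2 giving 30.9%. On the values as deposited, also not centred, the NP counts were 166 and 786, or 17.4% higher. On the DEHP array 251 and 510 became 391 and 365 without centring. Of the 7 aquaporin genes, 6 lay below the median gene on the NP array. Without centring 5 lay below the control, because aqp-2 turned positive, and the NP median of -0.80 became -0.42. With dim genes kept in, the NP median over 9 genes was -0.34. On the DEHP array 5 of the 7 lay below the median gene, and without centring 3 lay below the control, with the median moving from -0.13 to 0.032.

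Without aqp-1 and aqp-8, the 5 detected genes ranged from -0.20 to 0.37 with BPA, from -0.26 to 0.42 with DEHP and from -1.34 to 0.19 with NP. Their medians were -0.016, -0.13 and -0.49. The 5th to 95th percentiles of all detected genes ran from -0.63 to 0.62 for BPA, from -1.07 to 0.79 for DEHP and from -1.23 to 0.76 for NP. On the BPA and DEHP arrays these 5 genes all lay inside that range, and so did aqp-1 with DEHP (0.41). With NP aqp-7 lay below it. The genes aqp-1 and aqp-8 were set apart with their wide departures in these same values known. The range of the rest therefore largely restates that choice.

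**Figure D3:**
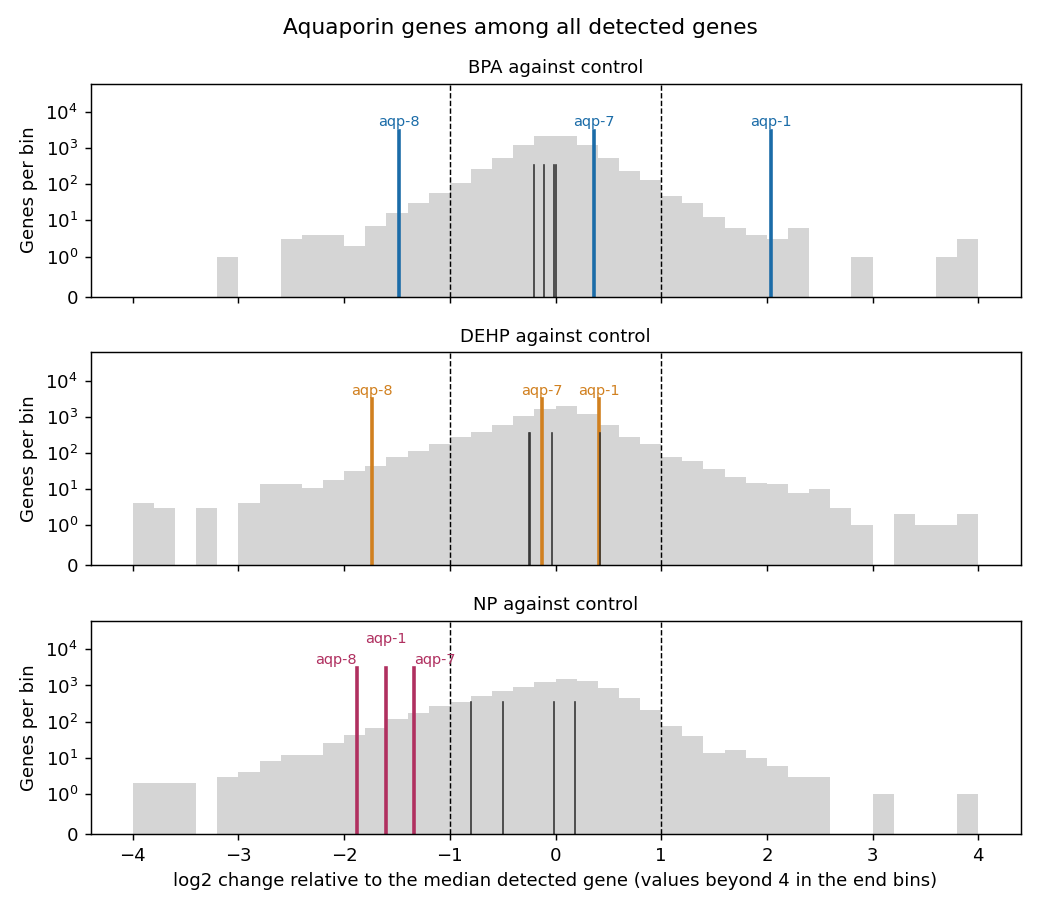
Number of detected genes (symmetric log axis) by log2 change from the control, in bins of 0.2, for the BPA, DEHP and NP arrays. Coloured lines mark aqp-1, aqp-7 and aqp-8, thin lines the other detected aquaporin genes, and dashed lines 2-fold. On the BPA array aqp-1 (2.04) and aqp-8 (-1.48) lie in opposite tails, and on the NP array all 3 marked genes lie in the lower tail.

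The exposed arrays can be set beside each other without the control. Of the chemicals, BPA and NP are phenols, while DEHP is a phthalate diester. Their doses were equal only as a fraction of each LC50. The aqp-1 intensity of 3797 with BPA stood against 305 with NP, a log2 difference of 3.62 or 12.3-fold. It ranked 7 from the highest of 8944 detected genes in that comparison. The difference was 1.61 between BPA and DEHP and -2.03 between NP and DEHP. The 2 phenols thus gave the highest and the lowest aqp-1 reading, with DEHP between them. With 1 array each, no interval can be given for these differences.

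The same order held for aqp-7, with 6243 on the BPA array, 4466 with DEHP and 1923 with NP. The log2 difference was 1.68 between BPA and NP, 0.47 between BPA and DEHP and -1.23 between NP and DEHP. Of 6 aquaporin genes detected between BPA and NP, 2 were at least 2-fold higher with BPA and 0 lower, against 6.61% and 2.33% of all detected genes. Between BPA and DEHP 1 was higher with BPA and 0 lower, against 2.82% and 2.11%. Between NP and DEHP 0 were higher with NP and 2 lower, against 2.09% and 5.37%. The gene aqp-11 was lower with NP than with DEHP by less than 2-fold (-0.93), and aqp-2, aqp-4 and aqp-10 were within 0.78 log2 in these 3 comparisons.

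**Figure D4:**
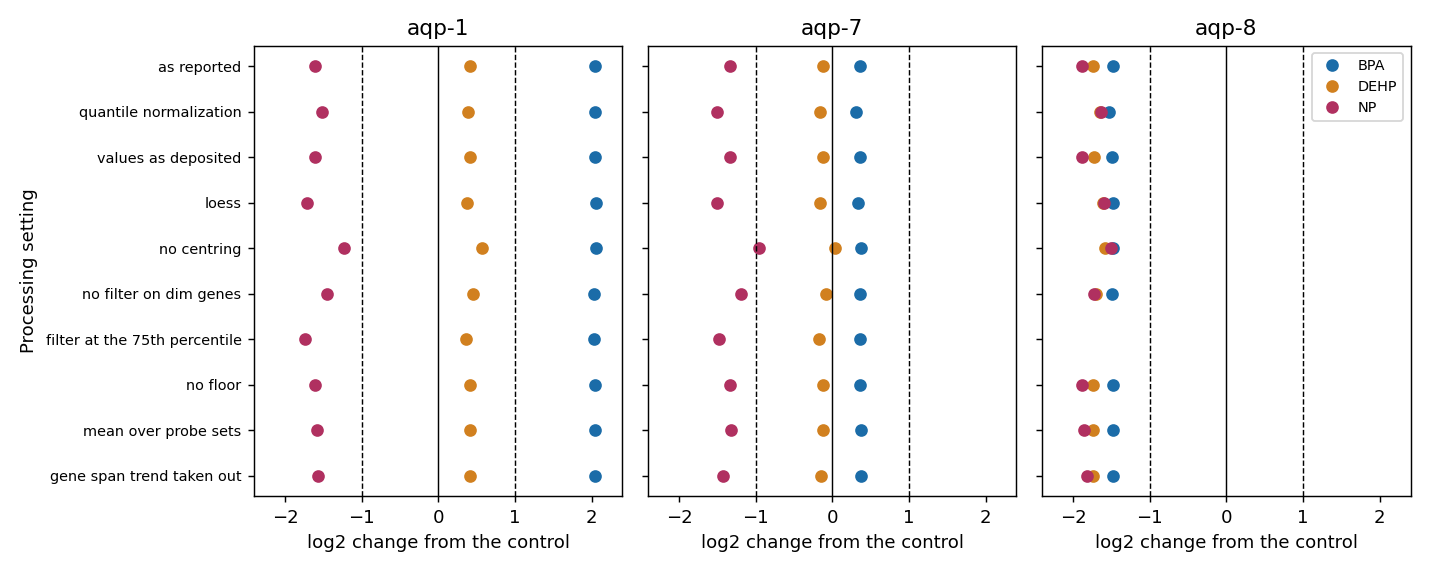
Log2 change from the control of aqp-1, aqp-7 and aqp-8 on the BPA, DEHP and NP arrays under each processing setting, with 2-fold as dashed lines. Points keep their side of 0 and of 2-fold, except that aqp-7 on the NP array moves inside 2-fold (-0.96) without centring and on the DEHP array moves to the other side of 0 (0.032). aqp-8 has no point where genes under the 75th percentile were left out.

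The genes with the profile most like aqp-1 were found by the Euclidean distance over the 3 log2 changes from the control, among 5136 other genes above the floor on every array and bright on at least 1. The nearest was adh-1, an alcohol dehydrogenase gene, at a distance of 0.62. Its intensity was 6307 on the control array, 17240 with BPA, 7556 with DEHP and 1888 with NP, with log2 changes of 1.45, 0.25 and -1.74. Then came F11A5.9 (distance 0.92), C35C5.8 (0.99), F32D8.12 (1.19) and the bestrophin gene best-1 (1.32). Of these, F11A5.9 and F32D8.12 are read by _s_ or _x_ probe sets. The other probe set of C35C5.8 read 2.37, 0.80 and -0.19, against 2.28, -0.54 and -1.74 on the brighter probe set.

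The genes nearest to aqp-8, among 5137, were the nuclear hormone receptor gene nhr-97 (distance 0.41), ZC412.3 (0.42), the collagen gene col-145 (0.45), the sodium-calcium exchanger gene ncx-2 (0.54) and the myosin gene myo-5 (0.75). All of these but nhr-97 are read by _s_ or _x_ probe sets, whose probes can match several transcripts. The gene nhr-97 read 863 on the control array, 333 with BPA, 343 with DEHP and 236 with NP, with log2 changes of -1.37, -1.34 and -1.87. The other probe set of nhr-97 read -0.41, -0.75 and -1.94, and the other probe set of ncx-2 read 1.52 on the BPA array, against -1.08 on the brighter one. All these distances share the control array, and they rank genes over 3 differences only. The likeness in pattern is what chose these genes, so it is no result about them.

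**Figure D5:**
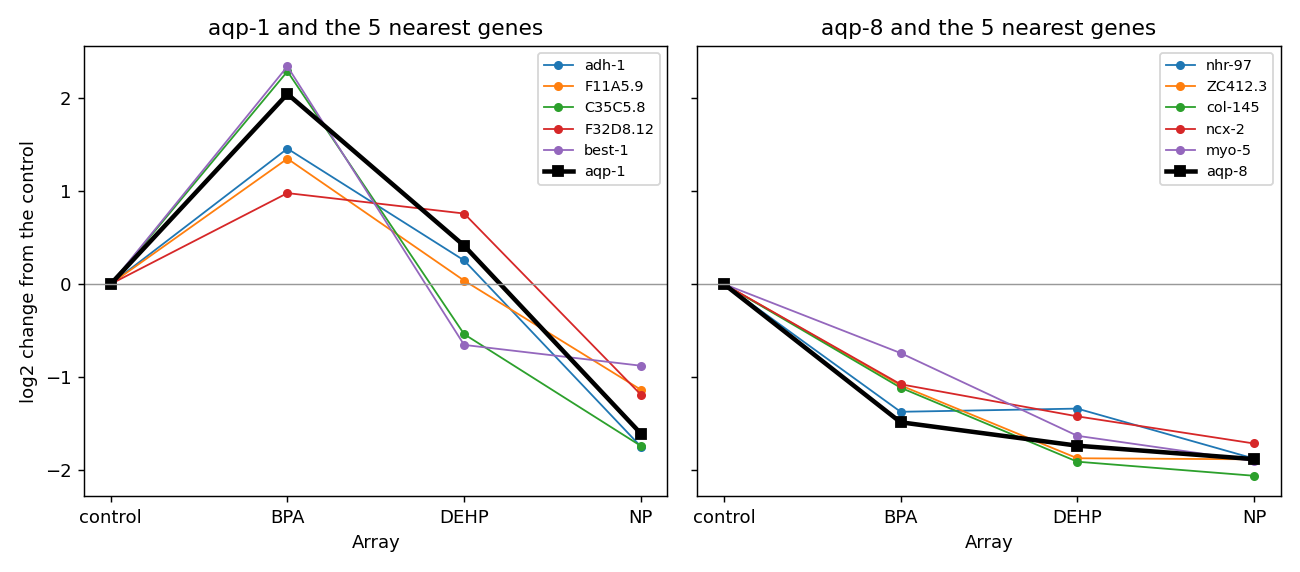
Log2 change from the control, relative to the median detected gene, of aqp-1 (left) and aqp-8 (right) with the 5 genes nearest to each. Lines join the values of a gene and imply no order of the arrays, and the control is 0 by definition. The genes were chosen for closeness over these same 3 values, so the shared shape restates that choice.

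Genes of glycerol release and of the osmotic stress response are the setting in which the aquaglyceroporins act. All gene lists below were chosen with earlier results of these data known, so their counts are no independent readout. The counts of listed genes past 2-fold stand against the same shares of all detected genes as above, 1.3% higher and 1.41% lower with BPA, 2.82% and 5.72% with DEHP, and 1.92% and 8.42% with NP. Among the listed genes named below, lipl-3, osr-1, nlp-29, sulp-8, vha-12, ifb-2 and act-5 are read by _s_ or _x_ probe sets. So are unc-54, mup-2, myo-3, dpy-7, msd-2 and icl-1, and such probes can match several transcripts. A listed gene that reached the detection level through the control array alone could pass 2-fold only as lower, and one that reached it through an exposed array alone only as higher. With DEHP the dimmer side was under the detection level for lipl-1, exc-7 and eat-4. With NP it was so for lipl-3, fat-5, acdh-2, rol-6 and eat-4, and the sizes of all these changes are uncertain. Of 17 genes listed for glycerol and triglyceride breakdown, 10 were detected on the BPA array and 0 were at least 2-fold from the control, with a median of 0.24. On the DEHP array 4 of 10 were lower and 0 higher, with a median of -0.20. These were the lysosomal lipase genes lipl-1 (-1.93), lipl-2 (-1.41) and lipl-3 (at least 5.44-fold lower, its DEHP value of 13.3 being under the floor) and the fasting-induced lipase gene fil-1 (-1.07). With NP 2 of 11 were lower and 0 higher, lipl-3 (-1.98) and fil-1 (-1.27), with a median of -0.44. The aqp-1 values beside these medians were 2.04, 0.41 and -1.61.

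Of 13 genes of the osmotic response and its regulators, the numbers detected with BPA, DEHP and NP were 8, 9 and 8. None was 2-fold from the control with BPA. Higher on the DEHP and NP arrays were osm-8 (1.51 and 1.22), which encodes a secreted mucin-like protein, and osr-1 (1.42 and 1.75). The osr-1 sizes are uncertain, since its control value was under the detection level. The control value of osm-8, 144, lay barely above that level of 141, so its sizes are uncertain too. Loss of either gene is known to give osmotic resistance. The antimicrobial peptide gene nlp-29, known to be induced by salt and wounding, was lower on the DEHP array (-1.38). The list medians were 0.25, -0.022 and -0.44 for BPA, DEHP and NP.

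Lists of tissue genes were set beside the aquaporins of the same tissues, and the part of tissue content in the aquaporin values was not tested. The NP values of these lists are not corrected for gene span. Of 20 excretory cell genes 17, 15 and 14 were detected, with medians of -0.0015 with BPA, -0.45 with DEHP and -0.46 with NP. No member was 2-fold from the control on the BPA array, where aqp-8 read -1.48. On the DEHP array 4 were lower and 0 higher, namely exc-5 (-1.43), a guanine nucleotide exchange factor gene needed for the shape of the canal, exc-7 (-1.24), an RNA-binding protein gene, the proton pump gene vha-5 (-1.14) and the anion transporter gene sulp-8 (-1.12). On the NP array 2 were lower and 0 higher, vha-5, with 352 against 861 on the control array, and its fellow pump gene vha-12 (-1.02). The excretory cell channel gene aqp-2 read -0.20, -0.24 and -0.010 for BPA, DEHP and NP, and aqp-3 was not detected. The summed intensity of the 19 list members read was 24024 on the control array, 23460 with BPA, 19201 with DEHP and 15933 with NP, and no member was under the floor on every array. Such sums weight bright probe sets most, and vha-12 alone read 7831 on the control array and 3886 with NP.

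The 13 intestine markers, beside aqp-1 and aqp-4, had medians of -0.16, -0.31 and -0.76 for BPA, DEHP and NP. Their summed intensity was 62689 on the control array, 59935 with BPA, 55461 with DEHP and 44377 with NP. With BPA, where aqp-1 was 4.11-fold higher, the marker values ran from -0.56 to 0.19. With DEHP 1 was lower, ifb-2 (-1.09), and 0 higher. With NP 3 were at least 2-fold lower and 0 higher, ifc-2 (-1.48) and ifb-2 (-1.19), which encode intermediate filaments, and the actin gene act-5, with an intensity of 1984 against 4248. The aqp-1 value of -1.61 lay below the lowest marker there, and the aqp-4 value of -0.80 lay near the marker median.

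The 12 body wall muscle markers, beside aqp-7, had medians of -0.15, -0.36 and -0.55. Their summed intensity was 65855 on the control array, 60917 with BPA, 57394 with DEHP and 47981 with NP. With NP 3 were at least 2-fold lower and 0 higher, the twitchin gene unc-22 (-2.57), the myosin gene unc-54 (-1.24) and the troponin T gene mup-2 (-1.15). The aqp-7 value of -1.34 lay between those of unc-22 and unc-54. On the DEHP array unc-22 (-1.55) and the myosin gene myo-3 (-1.06) were lower, and aqp-7 read -0.13. None of the 12 was under the floor on every array.

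The 13 neuron markers had medians of -0.20, -0.77 and -0.69, with 0, 4 and 6 members at least 2-fold lower and 0 higher, against 1.41%, 5.72% and 8.42% of all detected genes lower. The vesicular glutamate transporter gene eat-4 (-1.93 for DEHP, -2.25 for NP) and the synaptotagmin gene snt-1 (-1.85 and -1.51) were among them. The neuronal aquaporin gene aqp-6 was under the detection level on every array, so it has no change to set beside these. Hypodermis markers, 7 to 8 detected of 10, had medians of 0.47, 0.51 and 0.25, beside aqp-2 values of -0.20, -0.24 and -0.010. Their summed intensity was 27244 on the control array, 39311 with BPA, 37912 with DEHP and 30799 with NP. Past 2-fold were mlt-10, a molting gene, higher with BPA (1.01), and the collagen genes dpy-7, higher with DEHP (1.03), and rol-6, lower with NP (-1.60). Of 12 sperm markers only 2 were detected, with medians of 0.0014, 1.14 and -0.17, and msd-2 was past 2-fold upward with DEHP (1.86).

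Genes of insulin signalling and of its DAF-16 and heat shock factor targets were listed because aqp-1 is a known target. Of 16 detected, 1 was past 2-fold upward and 4 downward with BPA, 0 and 4 with DEHP, and 0 and 1 with NP. Lower genes were 1.41%, 5.72% and 8.42% of all detected genes, so the NP count lay near the background. The medians were -0.038, -0.048 and -0.10. The stress genes hsp-16.2, sod-3, mtl-1 and hsp-12.6 were the lower ones for BPA (-3.03, -1.98, -1.73 and -1.59) and for DEHP (-2.44, -1.50, -1.94 and -4.22), and sod-3 (-1.06) for NP. The higher one for BPA was icl-1 (1.26), a glyoxylate cycle gene. With BPA and DEHP, hsp-16.2 and sod-3 reached the detection level through the control side alone. So did hsp-12.6 with DEHP and sod-3 with NP. These genes could be counted only as lower there, and their sizes are uncertain.

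The fasting list holds genes known to rise and genes known to fall without food, and 8 of its 10 were detected. With BPA 4 were at least 2-fold higher and 0 lower, the acyl-CoA synthetase gene acs-2 (3.70), the dehydrogenase gene hacd-1 (2.88), the desaturase gene fat-5 (1.49) and icl-1 (1.26), which is also on the insulin list. With DEHP hacd-1 (1.59) and fat-5 (1.28) were higher and 0 lower. With NP 0 were higher and 3 lower, the acyl-CoA dehydrogenase gene acdh-2 (-2.23), fat-5 (-1.31) and hacd-1 (-1.29). The list medians of 0.69, 0.38 and -0.66 mix genes known to move in opposite directions and are not read further. All these values share the control array with those of aqp-1. The fasting list, like the others, was chosen with earlier results of these data known. Its counts are therefore no independent readout of lack of food, and the part of food in the aqp-1 values was not tested.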

How the data were processed

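The authors deposited linear probe-set intensity values of 4 one-colour arrays, 22625 probe sets each. The mean without the lowest and highest 2% was 500.1 on each, which shows a scaling to equal trimmed means. How probes were summarised, and with which software, is not given in the sources used here. A labelling note names fibroblasts as RNA source, against the worm named in the other labels.

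After 77 control probe sets were set aside, values were put on the log2 scale, shifted to a common median and floored at the pooled 25th percentile (scaled intensity 28.3). Genes were read by the probe set with the highest mean. Detection required the pooled median (129) on the brighter array of a comparison, and bright means the 75th percentile (613). Changes were centred on the median detected gene. Probe sets with 1 gene in the platform's annotation (20766) were used, and those with several (887) or no gene (895) were not. Symbols came through the WBcel235 gene table.

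All 10 members were named. Beside them stand the 5 genes nearest to aqp-1 and to aqp-8, and from each of 10 lists up to 4 genes per array with the largest change past 2-fold. The members and lists were chosen with earlier results of these data known. Of 139 list entries, 128 were on the array. The procedure was tested on simulated data. Python 3.11.15, numpy 2.4.6, pandas 2.3.3 and statsmodels 0.14.6 were used. The 9 alternatives were loess (span 0.3), quantile normalization, values as deposited, no centring, no floor, a detection filter at the 75th percentile, no such filter, the mean over probe sets, and a lowess trend with gene span taken out.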

Additional observations from a re-analysis of the deposited data

How the results depend on the processing

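Over 9 alternatives and 45 results, 384 of 390 values kept their direction where called and their side of 2-fold, or, for counts, stayed within 1.5 times. The aqp-1 change ran from 2.03 to 2.05 with BPA, from 0.37 to 0.57 with DEHP and from -1.74 to -1.23 with NP. The aqp-8 change lay between -1.53 and -1.47, -1.74 and -1.58, and -1.88 and -1.50 for BPA, DEHP and NP. With the filter at the 75th percentile aqp-4, aqp-8 and aqp-11 were left out and 4 aquaporin genes were kept. The changes of the genes left out are not among the 390 values. The count of lower aquaporin genes became 0 for BPA and 0 for DEHP under that filter. Without a filter on dim genes the count became 2 for DEHP, where aqp-6 (-1.22) joined aqp-8. With arrays shifted to a common median but not centred, aqp-7 read -0.96 for NP against the control and -0.99 for NP against DEHP. On the values as deposited, also not centred, it read -1.335 and -1.216. With the span trend taken out aqp-11 read -1.06 for NP against DEHP, past 2-fold. The count of lower genes on the NP array ranged from 2 to 3. For arrays, signal over background sets the limit. aqp-3, aqp-5, aqp-6 and the exposed values of aqp-8 lay under the detection level. No paired analysis was possible because each group has 1 array.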

Other observations

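The genomic neighbours of the aquaporin genes were read as well, a step chosen after seeing the data. Of the 20 protein-coding genes next to a member in the WBcel235 gene table, 17 had a probe set. With BPA 8 were detected, of which 1 was past 2-fold upward and 0 downward. With DEHP 6 were detected, 0 past 2-fold upward and 1 downward, and with NP 7, 0 upward and 3 downward. Of all detected genes, 1.3% were past 2-fold upward with BPA, and 5.72% downward with DEHP and 8.42% with NP. The neighbours of aqp-1, the carboxypeptidase-like gene ctsa-3.1 and the peroxidase gene skpo-3, read -0.11 and 0.093 on the BPA array, where aqp-1 read 2.04. On the NP array they read -0.61 and -1.26, beside -1.61 for aqp-1. Of the neighbours of aqp-8, hyl-2 was not detected, and the palmitoyltransferase family gene dhhc-10 read -0.26 for BPA, -0.41 for DEHP and -1.08 for NP, beside -1.48, -1.74 and -1.88 for aqp-8. The higher neighbour on the BPA array was ugt-33 (2.19), next to aqp-5, which lay under the floor. The gene ugt-33 reached the detection level through the BPA array alone, so it could count only as higher, and its size is uncertain. With DEHP and NP it was not detected, and its values there were 1.64 and 1.40.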
